A study of Mus musculus with 16 samples.

Results

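The effect of losing Ccm3 was measured with the drug present on both sides of the comparison. Of the 16 RNA-seq libraries of the study, 5 entered it, namely the 3 libraries of Ccm3 knockout cells given propranolol (KO+P) and the 2 libraries of wild-type cells given propranolol (WT+P), chosen by their labels. All came from mouse brain microvascular endothelial cells (mBMEC), grown from pooled brains of adult C57BL/6J mice aged 8 to 10 weeks, selected with puromycin and used at passage 2. Every mouse carried the Pdcd10 fl/fl allele and the Cdh5(PAC)-CreERT2 transgene, in which an endothelial promoter drives a Cre recombinase that is active only with tamoxifen. KO cultures had received 4-OHT, the active form of tamoxifen, and WT cultures had not, so the genotype and the exposure to 4-OHT cannot be told apart. Both groups were then exposed to 10 µM propranolol for 24 h. The remaining 11 libraries were untreated or given 100 nM rapamycin. Of these, the 3 untreated WT and 3 untreated KO libraries are set beside the comparison where it helps to read it.

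Ccm3, encoded by Pdcd10, is a small scaffold protein that joins the CCM complex of endothelial cells and also binds the GCKIII kinases and the STRIPAK phosphatase complex. Loss of the CCM complex releases the kinase MEKK3, which acts through MEK5 and ERK5 to raise the transcription factors KLF2 and KLF4, and brain vessels that lack it form cavernomas. Propranolol blocks beta-adrenergic receptors, which otherwise raise cAMP through the G protein Gs. It is also a cationic amphiphilic molecule that accumulates in lysosomes. The question of the comparison was which genes still differ between KO and WT cells when both carry the drug.

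Libraries that share a replicate number also shared the marks of a culture, as the plot by culture shows. Xist, the RNA of the inactive X chromosome, was at 135 and 69.2 CPM (counts scaled by the TMM-normalised library size) in the WT+P and KO+P libraries with number 1, where Ddx3y, a Y-linked gene, had no count. With number 2, Ddx3y was at 83.2 and 91.3 CPM, and Xist stayed at 0.039 and 0.125 CPM. KO+P replicate 3, which has no WT+P partner, held both (57.7 CPM of Xist and 47.9 CPM of Ddx3y). The other 11 libraries had the same marks by number. Replicate number 1 also stood apart under propranolol. The summed level of 25 ATF4 target and stress genes was 11284 CPM in WT+P and 11439 CPM in KO+P with number 1, 2698 and 5556 CPM with number 2, and 2865 CPM in KO+P replicate 3, whereas the 6 untreated libraries lay between 1667 and 2000 CPM. Libraries were paired by number, and the number was kept as a block in the model. The block fits the same shift for a number in every group of the 16 libraries. It therefore does not fully take up a shift of number 1 seen under propranolol and not in untreated cells. Calls with a block within the propranolol libraries, and calls without the libraries of number 1, are given below.

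**Figure D1:**
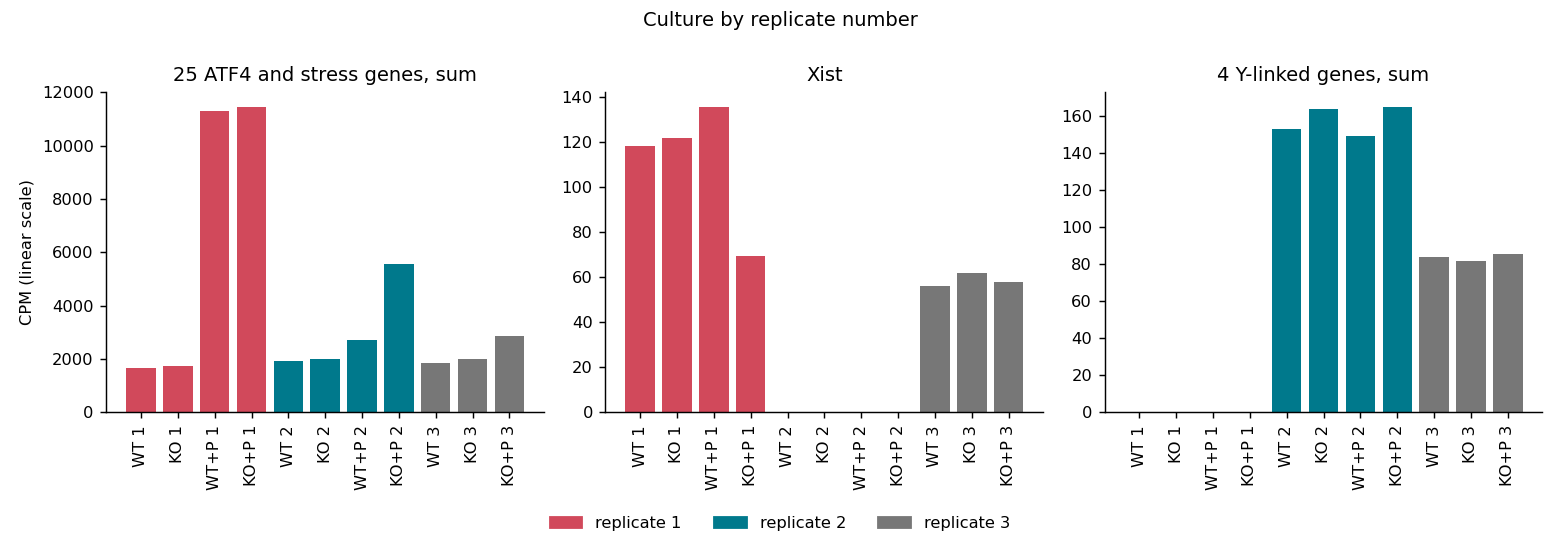
Bars give, for each of the 11 untreated and propranolol libraries, the summed level of 25 ATF4 and stress genes, the level of Xist and the summed level of 4 Y-linked genes, in CPM on linear axes and coloured by replicate number. Stress genes reached 11284 and 11439 CPM in the propranolol libraries with number 1, and Xist and the Y-linked genes follow the number and not the group.

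The libraries held 21.38 and 25 M counts in WT+P and between 18.83 and 23.92 M in KO+P. Endothelial markers summed to 9974 and 14401 CPM in WT+P and to between 10756 and 15482 CPM in KO+P, and none of the 14 was called. Mural cell markers summed to 427 and 865 CPM in WT+P and to between 189 and 449 CPM in KO+P, most of it from Acta2 and Mcam. Of the other mural markers, Pdgfrb stayed at or below 4.08 CPM and Rgs5 at or below 1.19 CPM in the 5 libraries. Kcnj8, Abcc9 and Vtn stayed at or below 0.197 CPM, while Anpep reached 59.2 CPM in KO+P replicate 3. Fibroblast markers were lower, at 15.0 and 70.3 CPM in WT+P and 5.2 to 80.5 CPM in KO+P. Of the defining markers of other brain cells, Gfap and Aqp4 of astrocytes, Mobp, Olig1 and Sox10 of oligodendrocytes, P2ry12 of microglia, Ttr and Folr1 of choroid plexus and Lum, Dpt and Slc6a13 of fibroblasts had no count in any of the 5 libraries. Other markers on these lists were present. Microglia and macrophage markers summed to 5.69 and 13.1 CPM in WT+P and to 14.5, 23.5 and 22.8 CPM in KO+P, nearly all of it from Cd68, a lysosomal protein of macrophages, at 4.81 and 11.0 CPM in WT+P and 13.7, 21.3 and 19.6 CPM in KO+P (edgeR adjusted p = 0.176, blocked DESeq2 adjusted p = 0.0356). Astrocyte markers summed to between 71.7 and 110 CPM in the 5 libraries, mostly Gja1, oligodendrocyte markers to between 23.2 and 45.0 CPM, mostly Cnp, and neuron markers to between 31.0 and 63.9 CPM, with overlapping groups in each. Choroid plexus and ependyma markers, nearly all Clic6, summed to 15.4 and 30.0 CPM in WT+P and to 7.54, 5.96 and 14.6 CPM in KO+P. The part of such cells in the results was not tested. In bulk RNA, fewer cells of a type and less RNA per cell cannot be told apart.

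Pdcd10, the targeted gene, was at 60.8 and 32.5 CPM in WT+P replicates 1 and 2 and at 16.7, 13.9 and 13.1 CPM in KO+P replicates 1, 2 and 3. All KO+P libraries lay below both WT+P libraries, in the direction of their labels. The means were 46.6 ± 20.0 CPM (SD, n = 2) and 14.6 ± 1.92 CPM (SD, n = 3), giving a KO+P vs WT+P difference of −1.74 on the log2 scale with a standard error (SE) of 0.442, which did not pass edgeR's quasi-likelihood test across all genes (adjusted p = 0.146) and passed DESeq2 with the same block (adjusted p = 0.00817). The library labelled WT replicate 1 without drug lay at 11.5 CPM, at the level of KO cells and against its label. It is no part of KO+P vs WT+P but enters the values given for untreated cells. Without it, 8 genes were called between KO+P and WT+P.

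Between KO+P and WT+P cells, 13 genes were called, which is 0.0876% of the 14838 tested (edgeR's quasi-likelihood test, adjusted p under 0.05 and a fold change above 1.5). In KO+P, 9 were lower (0.0607%) and 4 higher (0.027%). The genes that fell encode secreted and matrix proteins (Edn1, Thbs1), a transcriptional inhibitor (Id3), a kinase (Sgk1), receptors (Unc5b, Gpr161), actin-binding proteins (Palld, Cnn2) and a zinc finger protein (Zbtb47). Those that rose were Car7, Hlx, Rundc3a and Rapgef4. Each of the 13 moved the same way in both pairs, as did 27.3% of all tested genes upward and 31.0% downward. The groups did not overlap for 11 of the 13, against 16.6% of all tested genes (7.8% higher in KO+P and 8.77% lower). The 13 were picked by a test on these same libraries, so neither count adds separate evidence. The call depended on the block and on single libraries. No gene was called without the replicate block, when KO+P replicate 2 or WT+P replicate 1 was left out, or when the rapamycin libraries were. A single gene was called without KO+P replicate 1, and a single gene without both libraries of number 1. DESeq2 with the block called 263 genes (1.77%), among them all 13. A block fitted separately within the propranolol libraries, chosen after the data were seen, called 198, again with all 13. At an unadjusted p under 0.05 there were 859 genes higher (5.79%) and 1188 lower (8.01%).

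**Figure D2:**
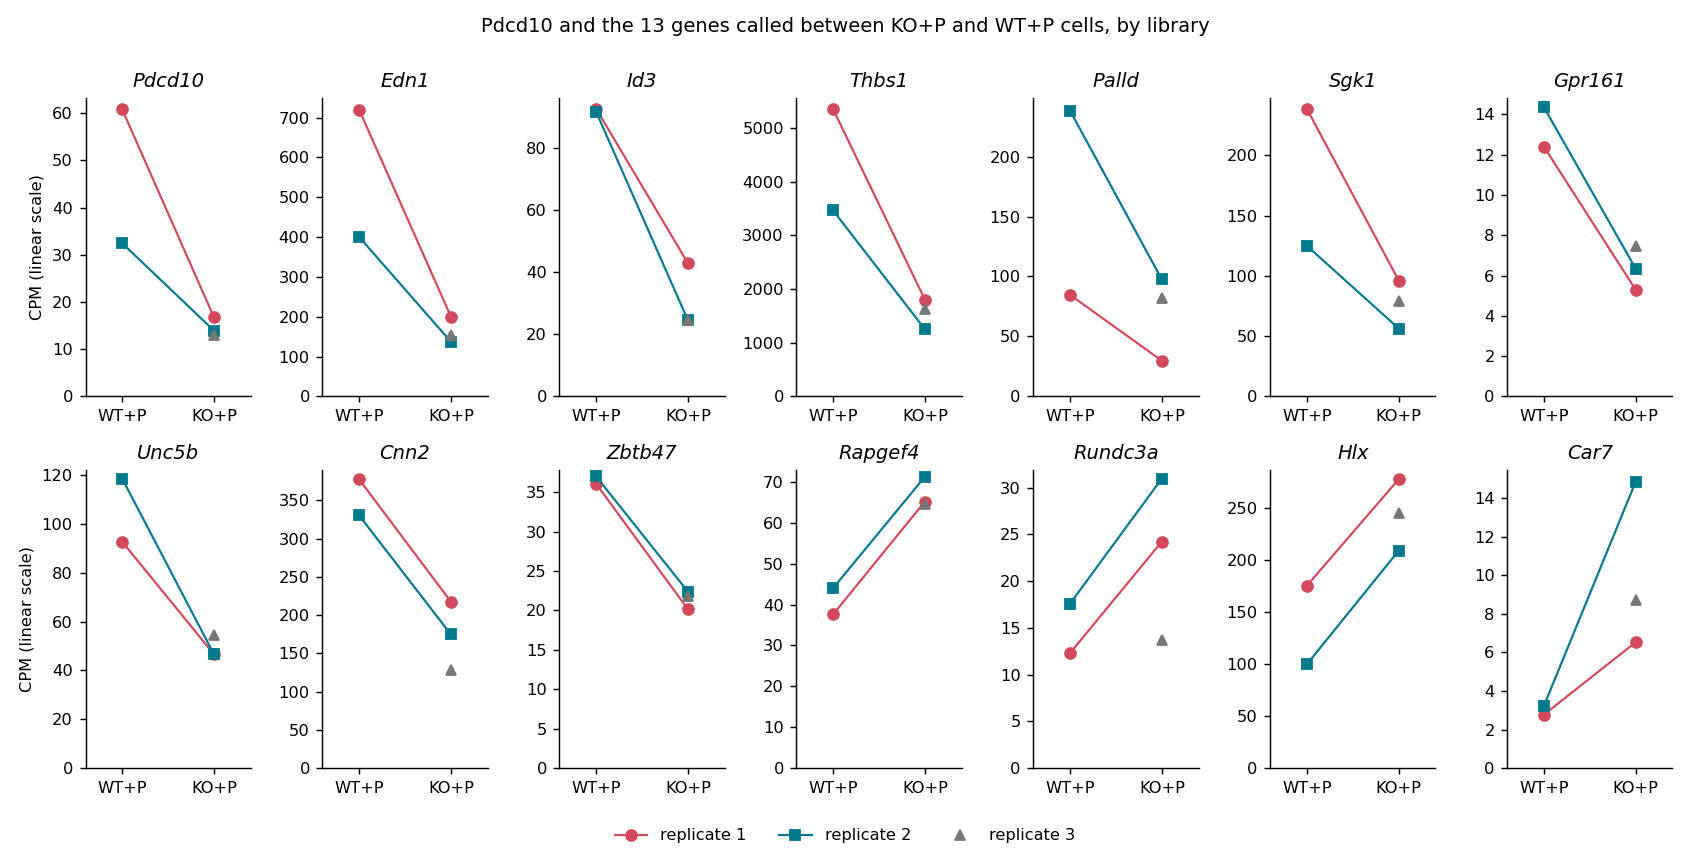
Levels of Pdcd10 and of the 13 called genes in the 5 propranolol libraries, in CPM on linear axes that start at 0. Lines join WT+P and KO+P libraries of the same replicate number, and the triangle is KO+P replicate 3, which has no partner. In both pairs Edn1 fell by more than 1.5-fold, and KO+P replicate 3 of Rundc3a, at 13.7 CPM, lies between the WT+P libraries.

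The largest fall among called genes was that of Edn1, the precursor of endothelin-1, a vasoconstrictor that endothelial cells secrete. Edn1 (ENSMUSG00000021367, chromosome 13 of GRCm39) was at 719 and 400 CPM in WT+P and at 200, 137 and 153 CPM in KO+P. Every KO+P library lay below the WT+P libraries, and WT+P replicate 1 was the highest. The log2 fold change was −1.66 (SE 0.178, adjusted p = 0.00794), a 3.17-fold lower level. Id3, a helix-loop-helix protein that binds other such factors and keeps them from DNA, and a target of BMP signalling, was at 92.6 and 91.6 CPM in WT+P and at 42.9, 24.5 and 24.4 CPM in KO+P. The WT+P libraries were nearly level, and KO+P replicate 1 was the least reduced. Its log2 fold change was −1.57 (SE 0.169, adjusted p = 0.00794). Thbs1 encodes thrombospondin-1, a secreted glycoprotein that restrains angiogenesis, and is among the genes described as regulated downstream of KLF2 and KLF4. It was at 5355 and 3466 CPM in WT+P and at 1805, 1253 and 1637 CPM in KO+P, a log2 fold change of −1.47 (SE 0.18, adjusted p = 0.0146). Without drug the same model gave −1.5 for Edn1, −1.69 for Id3 and −0.95 for Thbs1. Since the libraries carry no strand, a limit applies to all of these genes, because 22.5% of the exonic bases of Edn1, 11.8% of those of Id3 and 11.1% of those of Thbs1 overlap a non-coding gene.

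The bases before the annotated start sites of these 3 genes, which lead the genes that fell, were read from the genome. Each window holds the 250 bases before the start of the canonical GENCODE transcript, 5′ to 3′ on the strand of the gene, in GRCm39. Capitals mark matches, on either strand, to CCNCNCCC (bound by KLF and Sp factors), GGAATG (TEAD factors, the partners of YAP), TGANTCA (AP-1), GGCGCC (BMP-SMAD) and ACGTG (HIF), and matches may overlap. The window of Edn1 lies at chr13:42454492-42454741, that of Id3 at chr4:135870558-135870807 and that of Thbs1 at chr2:117941724-117941973, all on the plus strand.
Edn1: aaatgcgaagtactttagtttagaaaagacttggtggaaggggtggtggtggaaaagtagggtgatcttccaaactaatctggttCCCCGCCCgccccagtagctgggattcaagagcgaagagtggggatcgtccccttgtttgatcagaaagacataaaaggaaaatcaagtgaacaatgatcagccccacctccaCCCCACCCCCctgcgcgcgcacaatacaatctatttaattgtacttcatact
Id3: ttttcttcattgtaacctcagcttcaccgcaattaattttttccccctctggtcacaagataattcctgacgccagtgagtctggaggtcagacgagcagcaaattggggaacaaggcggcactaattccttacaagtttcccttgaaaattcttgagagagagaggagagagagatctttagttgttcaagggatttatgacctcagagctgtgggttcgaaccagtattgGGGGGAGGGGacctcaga
Thbs1: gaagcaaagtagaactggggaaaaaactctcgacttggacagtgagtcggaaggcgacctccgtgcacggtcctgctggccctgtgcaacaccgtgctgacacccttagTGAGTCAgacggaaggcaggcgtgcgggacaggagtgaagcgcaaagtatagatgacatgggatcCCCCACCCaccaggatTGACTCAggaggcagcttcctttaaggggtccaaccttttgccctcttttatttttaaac
Each of the windows holds CCNCNCCC, which is also found in 55.8% of the 14837 windows read for tested genes, in 7 of the 9 genes that fell and in 3 of the 4 that rose. That of Thbs1 also holds TGANTCA at 2 places, a motif present in 4.73% of all windows. RefSeq places the start of Edn1 210 bases and that of Id3 325 bases further downstream, so these windows lie before a start site only in the GENCODE annotation, where those of Id3 and Thbs1 also lie within exons of antisense or other non-coding genes.

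Sgk1, a kinase induced by serum and glucocorticoids that acts on ion transport, was at 238 and 125 CPM in WT+P and at 96.0, 56.3 and 79.4 CPM in KO+P. Its log2 fold change was −1.23 (SE 0.148, adjusted p = 0.0146), and 14.4% of its exonic bases overlap other genes. Unc5b, a netrin receptor of arterial and tip endothelial cells, had 92.8 and 119 CPM in WT+P and 46.6, 46.6 and 54.7 CPM in KO+P (log2 fold change −1.17, adjusted p = 0.0446). Gpr161 is an orphan receptor of the primary cilium that signals through cAMP. It was at 12.4 and 14.4 CPM in WT+P and at 5.29, 6.34 and 7.49 CPM in KO+P, and its log2 fold change of −1.18 (adjusted p = 0.0187) stood beside −0.34 in untreated cells. For both receptors the groups did not overlap.

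A pair of the genes that fell act on the actin cytoskeleton. Cnn2, or calponin 2, was at 377 and 330 CPM in WT+P and at 217, 175 and 128 CPM in KO+P, with a log2 fold change of −0.85 (adjusted p = 0.0187). Palld, which encodes the actin scaffold palladin, depended on the culture. It was at 84.7 CPM in WT+P and 29.7 CPM in KO+P with number 1, at 238 and 97.5 CPM with number 2, and at 81.9 CPM in KO+P replicate 3, so that the groups overlapped although both pairs fell (log2 fold change −1.28, adjusted p = 0.0478). Zbtb47, a zinc finger protein, was at 36.1 and 37.0 CPM in WT+P and between 20.2 and 22.4 CPM in KO+P (log2 fold change −0.77, adjusted p = 0.0381). Palld, and Rundc3a below, fell outside the naming rule because their groups overlapped, and are named after their values were seen.

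Among the 4 genes that rose, Car7, a cytosolic carbonic anhydrase, had the largest fold change and the lowest level. It was at 2.77 and 3.23 CPM in WT+P and at 6.54, 14.9 and 8.73 CPM in KO+P (log2 fold change 1.75, SE 0.274, adjusted p = 0.0478). KO+P replicate 2 was the highest, and the groups did not overlap. Hlx, a homeobox transcription factor, was at 176 and 100 CPM in WT+P and at 278, 209 and 245 CPM in KO+P (log2 fold change 0.92, adjusted p = 0.0458). Rapgef4 encodes Epac2, an exchange factor that cAMP activates to load the GTPase Rap1. It rose from 37.6 and 44.0 CPM in WT+P to 65.2, 71.3 and 64.6 CPM in KO+P (log2 fold change 0.73, SE 0.103, adjusted p = 0.032). Rundc3a, a RUN domain protein, was at 12.3 and 17.6 CPM in WT+P and at 24.2, 31.0 and 13.7 CPM in KO+P (log2 fold change 0.87, adjusted p = 0.032). KO+P replicate 3 thus lay within the range of WT+P, and 20.1% of its exonic bases overlap other genes, as do 17.0% of those of Hlx. Of 22 tested genes that lie beside the 11 called genes whose groups did not overlap, 0 were called by edgeR's test, and 1, Gm66129 beside Sgk1, had an unadjusted p under 0.05.

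Klf2 and Klf4, the transcription factors at the end of the MEKK3 and ERK5 cascade, had higher levels in every KO+P than in every WT+P library, without passing edgeR's test. Klf2 was at 218 and 256 CPM in WT+P and at 585, 461 and 575 CPM in KO+P (log2 fold change 1.25, SE 0.488, adjusted p = 0.291). Klf4 was at 155 and 143 CPM in WT+P and at 375, 432 and 353 CPM in KO+P, a log2 fold change of 1.38 (SE 0.441, adjusted p = 0.21), which passed DESeq2 with the block (adjusted p = 0.031). Without drug the differences were 1.28 for Klf2 and 1.52 for Klf4 on the log2 scale. The levels of Klf4 in the propranolol groups stood above those of the untreated groups on both sides, as the plot of these genes shows, since untreated WT cells had between 28.5 and 106 CPM and untreated KO cells between 149 and 219 CPM.

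**Figure D3:**
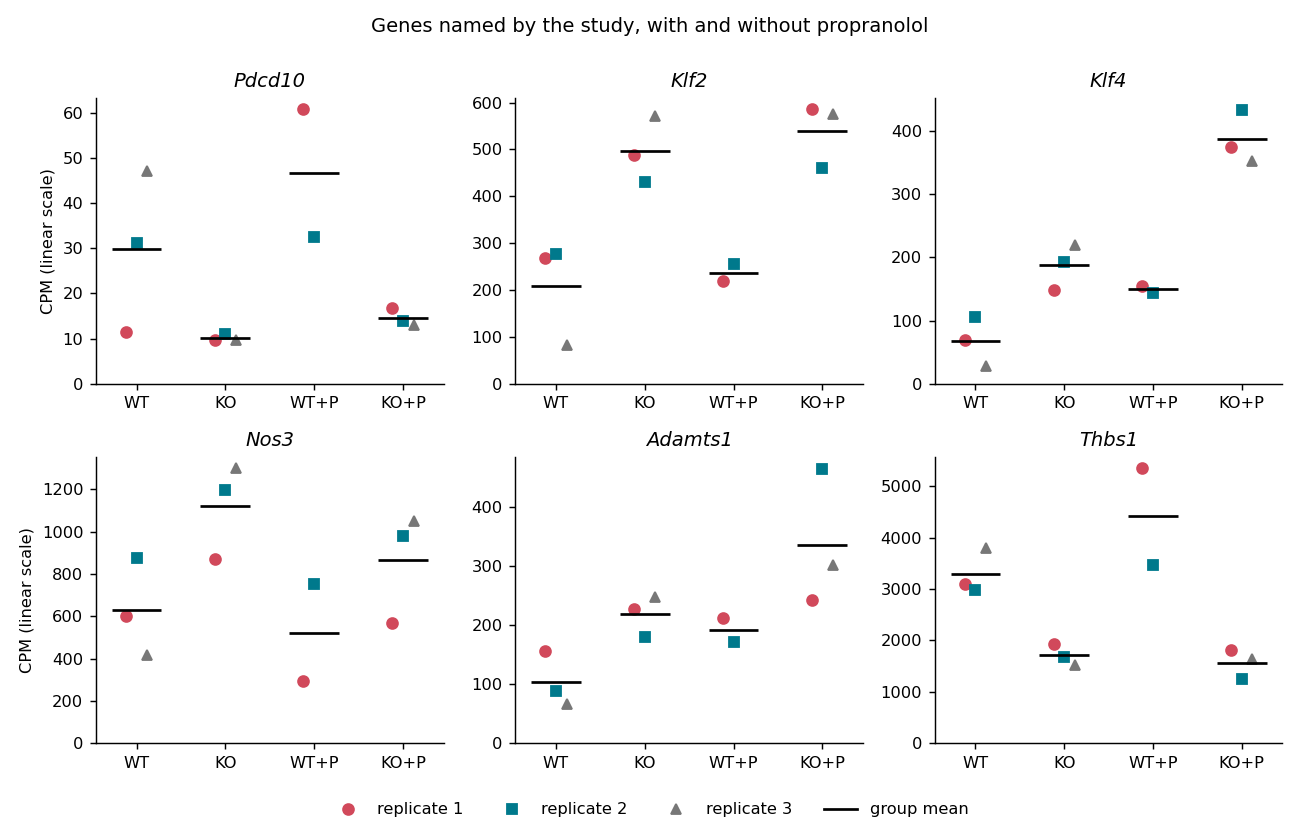
Levels of Pdcd10, Klf2, Klf4, Nos3, Adamts1 and Thbs1 in untreated and propranolol-treated WT and KO libraries, in CPM on linear axes. Symbols mark replicate numbers and bars group means. Klf4 was at 155 and 143 CPM in WT+P and between 353 and 432 CPM in KO+P, and the library labelled WT replicate 1 had 11.5 CPM of Pdcd10.

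Nos3, the endothelial nitric oxide synthase, and Adamts1, a secreted metalloprotease that cleaves proteoglycans, are genes that the study describes as known to depend on KLF2 and KLF4. Nos3 was at 292 and 752 CPM in WT+P and at 566, 977 and 1049 CPM in KO+P. Both pairs were higher in KO+P, but the groups overlapped (log2 fold change 0.78, SE 0.359, adjusted p = 0.366), and 32.7% of its exonic bases overlap other genes. Adamts1 was at 212 and 172 CPM in WT+P and at 243, 465 and 301 CPM in KO+P (log2 fold change 0.80, adjusted p = 0.406). Its difference was small in the first pair and large in the second. Egfr, the receptor of epidermal growth factor, was rare, at 2.59 and 9.62 CPM in WT+P and at 1.17, 3.96 and 1.08 CPM in KO+P (log2 fold change −1.40, edgeR adjusted p = 0.126, blocked DESeq2 adjusted p = 0.0119). The cell death genes of the study gave small differences. Those of Bax, Bcl2l11 and Tnfrsf10b were −0.06, 0.10 and −0.02 on the log2 scale, with standard errors (SE) of 0.117, 0.165 and 0.0973.

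Over the 26 pathway lists at most 1 member of a list was called by edgeR, so the lists are described by the genes past an unadjusted p of 0.05 and by those that DESeq2 called with the block (0.782% of tested genes higher and 0.991% lower), all chosen for naming after their values were seen. At an unadjusted p under 0.05 in edgeR, 5.79% of all tested genes were higher and 8.01% lower. The counts of each list are to be read against these shares. However, the lists share members with the genes that the study found to differ in untreated cells. Among these are Klf4, Thbs1, Palmd, Nostrin, Lamb1, Ccn1, Ccn2, Pfkfb3, Egln3, Nqo1 and Xdh. Such genes were already known to differ in this series, so a count above the shares is not independent evidence. The median log2 fold change of all tested genes was −0.01. In the list of MEKK3, ERK5, KLF2, KLF4 and their targets the median over 25 tested members was 0.36, with 7 higher and 3 lower at an unadjusted p under 0.05. DESeq2 called Klf4, Palmd and Nostrin higher and Thbs1 lower. Palmd was at 55.7 and 68.0 CPM in WT+P and at 66.7, 160 and 165 CPM in KO+P. Among the 21 tested genes of the CCM complex, its kinases and STRIPAK, Rap1a, a GTPase that recruits Krit1 to junctions, was called higher by DESeq2 besides the lower Pdcd10, with 132 and 91.3 CPM in WT+P and between 134 and 228 CPM in KO+P.

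**Figure D4:**
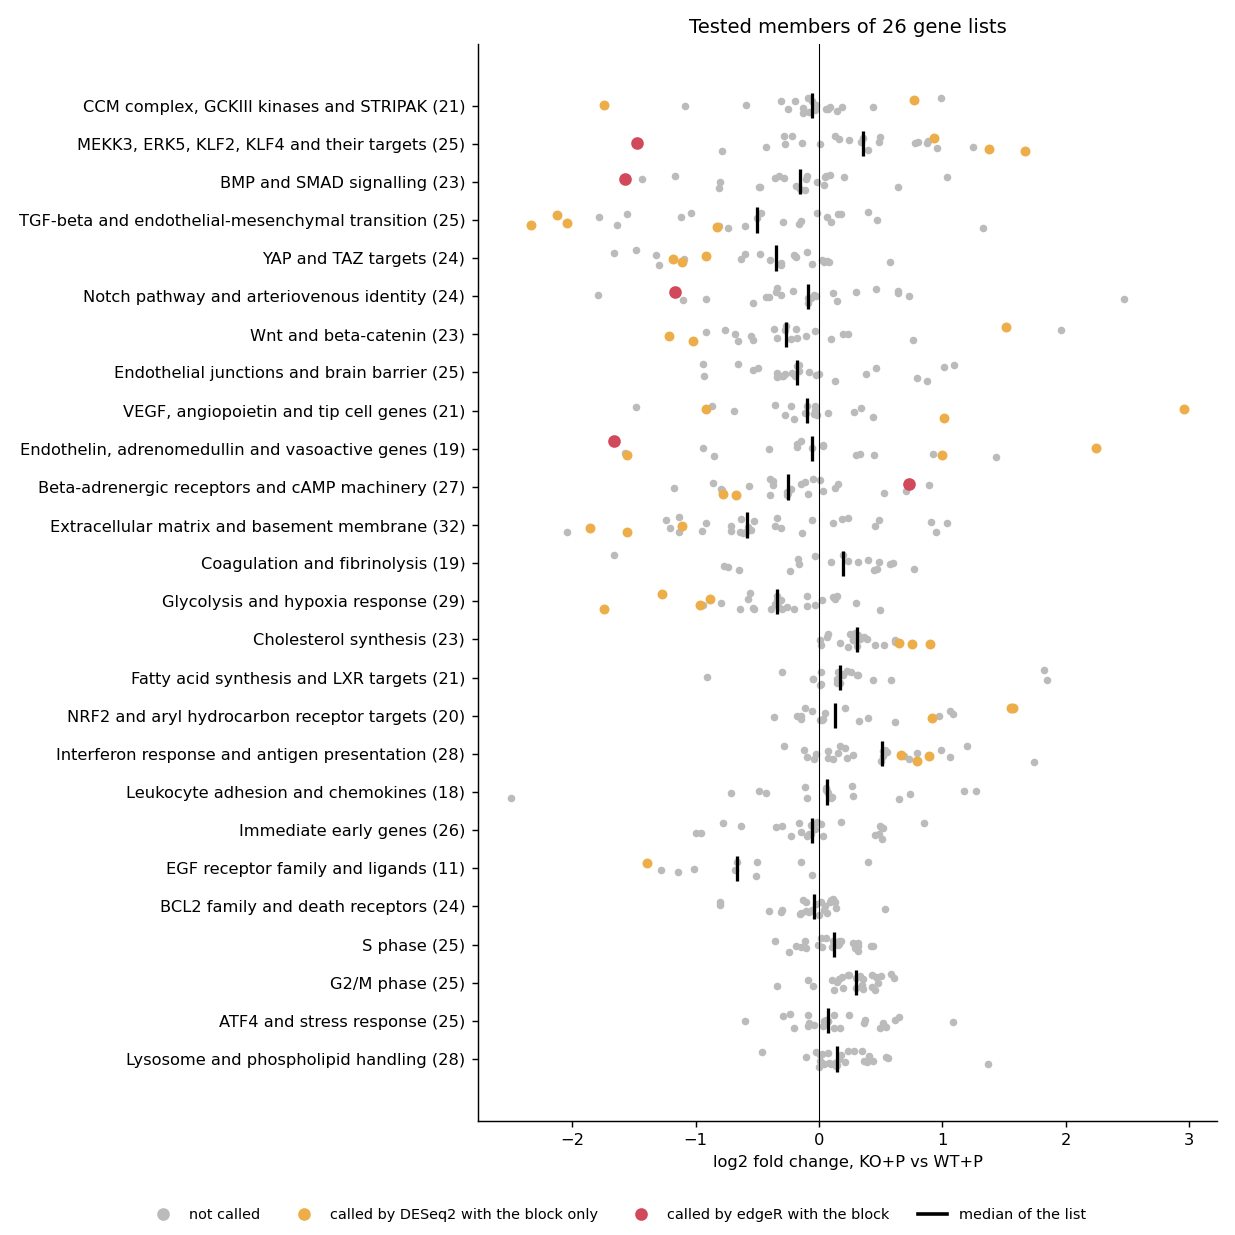
Log2 fold change of KO+P vs WT+P for the tested members of 26 gene lists, with their number in brackets. Each point is a gene, red where edgeR called it and yellow where only DESeq2 did, and the bar is the median of the list. Members of the extracellular matrix list had a median of −0.59 and those of the interferon list 0.51, against −0.01 over all tested genes.

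Genes of the extracellular matrix, of TGF-beta signalling and of the YAP and TAZ programme lay mostly below zero. Of 32 tested matrix and basement membrane genes, 13 were lower and 1 higher at an unadjusted p under 0.05 in edgeR. Their median was −0.59 under propranolol and −0.19 without drug. In 6 of the 32 all KO+P libraries lay below WT+P and in 0 above, against 8.77% and 7.8% of all tested genes. Lamb1, a laminin chain of the basement membrane, was at 399 and 391 CPM in WT+P and at 205, 189 and 138 CPM in KO+P, and was called lower by DESeq2 (adjusted p = 0.000903). Col12a1 and Col5a1, collagens that fibroblasts and mural cells also make, followed the culture, with 2.59 and 33.2 CPM of Col12a1 in WT+P and 0.708, 9.34 and 2.58 CPM in KO+P. Col4a1, the most abundant of the list, differed by −0.14. Of 25 genes of TGF-beta and endothelial-mesenchymal transition, 10 were lower and 1 higher, with a median of −0.50. By the same count of separate groups, 3 of the 25 lay below WT+P and 1 above. The abundant Fn1, fibronectin, was at 11961 and 20443 CPM in WT+P and at 6254, 12203 and 11054 CPM in KO+P (log2 fold change −0.81, adjusted p = 0.234), and Vim differed by 0.10. Acta2, smooth muscle actin, was at 171 and 310 CPM in WT+P and at 42.7, 80.7 and 33.6 CPM in KO+P (log2 fold change −2.13). Acta2 also marks mural cells, whose 9 tested markers had a median of −0.43 with 2 higher and 3 lower, and Col3a1 and Col1a1 mark fibroblasts, whose 7 tested markers had a median of −1.12 with 2 lower. The part of these cells in the matrix and TGF-beta values was not tested. A mural marker also moved the other way, since Anpep was at 7.91 and 7.22 CPM in WT+P and at 21.5, 28 and 59.2 CPM in KO+P. Col1a1 had a log2 fold change of −2.04 with the block and 0.15 without it.

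YAP and TAZ are coactivators that respond to tension and adhesion. Of 24 tested targets, 10 were lower and 0 higher at an unadjusted p under 0.05 in edgeR (8.01% of all tested genes were lower), 10 were lower with no overlap between the groups (8.77% of all), and DESeq2 called 3, all lower (0.991% of all). They were Ccn1 and Ccn2, matricellular proteins, and Crim1, a transmembrane protein that binds BMPs. Ccn1 was at 2196 and 917 CPM in WT+P and at 871, 602 and 424 CPM in KO+P (log2 fold change −1.11, adjusted p = 0.0907 from edgeR). Ccn2 was at 4843 and 2539 CPM in WT+P and at 1606, 1817 and 930 CPM in KO+P, with 36.5% of its exonic bases shared with another gene. The median of the list was −0.35 with propranolol and −0.32 without. In the BMP and SMAD list Id3 was the 1 gene called among 23 tested, and 4 were lower at an unadjusted p under 0.05.

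Glycolysis and hypoxia genes lay mostly below zero as well. Of 29 tested, 9 were lower and 0 higher at an unadjusted p under 0.05 in edgeR, DESeq2 called 4 and 0, and 13 had no overlap between the groups in the lower direction, against 8.77% of all tested genes. Pfkfb3, which makes the activator of phosphofructokinase and drives glycolysis in sprouting endothelium, was at 64.0 and 75.3 CPM in WT+P and at 24.4, 29.8 and 32.7 CPM in KO+P (log2 fold change −1.27). Egln3, an oxygen-sensing prolyl hydroxylase, was at 40.7 and 54.8 CPM in WT+P and at 10.4, 16.9 and 9.76 CPM in KO+P (log2 fold change −1.74). Pfkl, the liver type phosphofructokinase, was at 210 and 204 CPM in WT+P and between 94.3 and 110 CPM in KO+P, with 39.8% of its exonic bases shared with another gene. The fourth, Ankrd37, shares 81.4% of its bases. The list had a median of −0.34 under propranolol and −0.41 without drug.

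Vasoactive genes beside Edn1 lay on both sides of zero. Ednrb, the endothelin B receptor, was at 14.4 and 2.72 CPM in WT+P and at 56.6, 24.7 and 27.0 CPM in KO+P (log2 fold change 2.25, edgeR adjusted p = 0.126, blocked DESeq2 adjusted p = 0.00129), so the ligand and this receptor differed in opposite directions. Adora2a, an adenosine receptor coupled to Gs, was at 7.72 and 12.2 CPM in WT+P and at 3.75, 2.42 and 5.63 CPM in KO+P. Ptges, a prostaglandin E synthase, was at 2.22 and 2.88 CPM in WT+P and between 5.2 and 8.88 CPM in KO+P. Over the 19 tested genes of the list the median was −0.06.

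In the list of beta-adrenergic receptors and cAMP machinery, the system that propranolol blocks, Rapgef4 was the 1 gene called among 27 tested. Adrb1 stayed at or below 0.276 CPM and Adrb3 at or below 2.25 CPM in all 5 libraries. Of the 27, 6 were lower and 2 higher at an unadjusted p under 0.05. DESeq2 called lower Pde4a, a phosphodiesterase that degrades cAMP (19.1 and 19.1 CPM in WT+P, 9.12, 10.8 and 14.6 CPM in KO+P), and Akap12, an anchor of protein kinase A (627 and 471 CPM in WT+P, 402, 315 and 361 CPM in KO+P). The median of the list was −0.25 with propranolol and 0.00 without.

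Several lists lay above zero. All 23 tested genes of cholesterol synthesis had the same sign with and without drug, as had 66.5% of all tested genes. At an unadjusted p under 0.05 in edgeR 10 were higher, against 5.79% of all, and 0 lower (DESeq2 called 3 and 0), and the median was 0.30. Fdps, farnesyl diphosphate synthase, was at 85.6 and 81.3 CPM in WT+P and at 143, 158 and 87.4 CPM in KO+P, and KO+P replicate 3 was lowest for Nsdhl and Tm7sf2 too. Among 20 targets of NRF2 and of the aryl hydrocarbon receptor, DESeq2 called 3 higher. Nqo1, a quinone reductase, was at 40.5 and 27.0 CPM in WT+P and at 142, 63.2 and 199 CPM in KO+P, Gstp1 at 77.4 and 58.9 CPM in WT+P and between 84.2 and 222 CPM in KO+P, and Xdh, xanthine dehydrogenase, at 2.5 and 1.66 CPM in WT+P and between 4.91 and 15.5 CPM in KO+P. Of 28 interferon and antigen presentation genes, 10 were higher and 0 lower at an unadjusted p under 0.05 in edgeR (DESeq2 called 3 and 0). Their median was 0.51 with propranolol and 0.08 without, and 3 had an unadjusted interaction p under 0.05 in edgeR. In 3 of the 28 all KO+P libraries lay above WT+P and in 0 below, against 7.8% and 8.77% of all tested genes. H2-D1, a class I antigen, was at 592 and 995 CPM in WT+P and at 1025, 1413 and 1200 CPM in KO+P. B2m, its light chain, was at 648 and 1150 CPM in WT+P and at 1026, 1480 and 1186 CPM in KO+P, so its groups overlapped.

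DESeq2 with the block called 1 of 23 tested Wnt genes higher and 2 lower. Of 21 tested VEGF, angiopoietin and tip cell genes it called 2 higher and 1 lower. Of all tested genes it called 0.782% higher and 0.991% lower. Wnt9a, a Wnt ligand, was at 59.2 and 53.5 CPM in WT+P and at 29.4, 27.3 and 24.8 CPM in KO+P, and Fzd1, a Wnt receptor, at 33.1 and 37.7 CPM in WT+P and at 10.9, 15.9 and 22.8 CPM in KO+P. Nkd2, an inhibitor of Wnt signalling inside the cell, had 5.87 and 7.81 CPM in WT+P and 20.1, 16.7 and 16.6 CPM in KO+P. Cxcl12, a chemokine of the vessel wall, was at 776 and 508 CPM in WT+P and at 393, 340 and 263 CPM in KO+P. Sema7a, a membrane semaphorin, was at 49.0 and 102 CPM in WT+P and at 141, 123 and 177 CPM in KO+P. The groups did not overlap for any of these 5 genes, against 16.6% of all tested genes. The 5 were picked because DESeq2 called them, so this adds no separate evidence. Among 24 Notch and arteriovenous genes Unc5b was the 1 called. No member of the junction and barrier, leukocyte adhesion, immediate early, cell death, cell cycle, stress, coagulation, fatty acid or lysosome lists was called by edgeR or by DESeq2 with the block. At an unadjusted p under 0.05 in edgeR these 10 lists held 19 higher and 8 lower, unevenly spread. The fatty acid list held 6 higher and 0 lower of 21 tested (5.79% and 8.01% of all tested genes), and the lysosome list 5 higher and 1 lower of 28. In the lysosome list 8 were higher and 1 lower with no overlap between the groups, against 7.8% and 8.77% of all tested genes. In the G2/M list the median was 0.30 under propranolol and 1.06 without drug. Of its 25 members, 1 had an unadjusted interaction p under 0.05 in edgeR. The summed level of the list varied with the culture, at 48.5 and 446 CPM in WT+P and 59.9, 322 and 317 CPM in KO+P. Untreated WT replicates 1, 2 and 3 had 108, 729 and 136 CPM, and untreated KO had 288, 755 and 504 CPM. The library of 108 CPM is the one whose Pdcd10 level went against its label.

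The study lists genes that differ between untreated KO and WT cells, and all of them were tested here. They were chosen on the untreated libraries, which are not compared in KO+P vs WT+P but share its replicate numbers and, through the block, its model, so their direction is not independent evidence. In the model, 104 of them were higher and 64 lower in untreated KO cells. Under propranolol every gene of the list had the same sign as without it, compared with 66.5% of all tested genes and with 80.0% of the 2249 other genes above 1.5-fold in untreated cells. The median size of the difference was 0.99 with propranolol and 1.13 without on the log2 scale. The list was chosen for its differences without drug, which can enlarge the size on that side. These medians therefore do not show whether the effect was weaker under propranolol. In the same direction and above 1.5-fold were 136 genes of the list (81.0%, against 13.0% of all tested genes), 157 had that direction in both pairs (93.5%, against 39.8%), and 98 (58.3%) had no overlap between the groups, against 13.3% of all tested genes. Among the 2249 other genes above 1.5-fold in untreated cells these shares were 44.6%, 48.5% and 17.2%. In the 1188 of those with a mean of at least 1 CPM they were 44.9%, 57.5% and 20.2%, and 88.1% had the same sign. Of the list, 5 were called by edgeR (0.0876% of all tested genes were) and 63 by DESeq2 with the block (1.77% of all were). The weakest was Mylip, at 15.0 and 14.6 CPM in WT+P and 11.8, 11.7 and 28.2 CPM in KO+P, whose log2 fold change of 0.01 stood beside 0.87 without drug and turned negative in 5 of the other settings. Kirrel3 and Sox11 had the largest differences and both varied with the culture, with 2.03 and 4.89 CPM of Sox11, a transcription factor, in WT+P and 24.5, 57.4 and 5.06 CPM in KO+P (log2 fold change 3.22, adjusted p = 0.0591). These 3 genes were named after their values were seen.

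**Figure D5:**
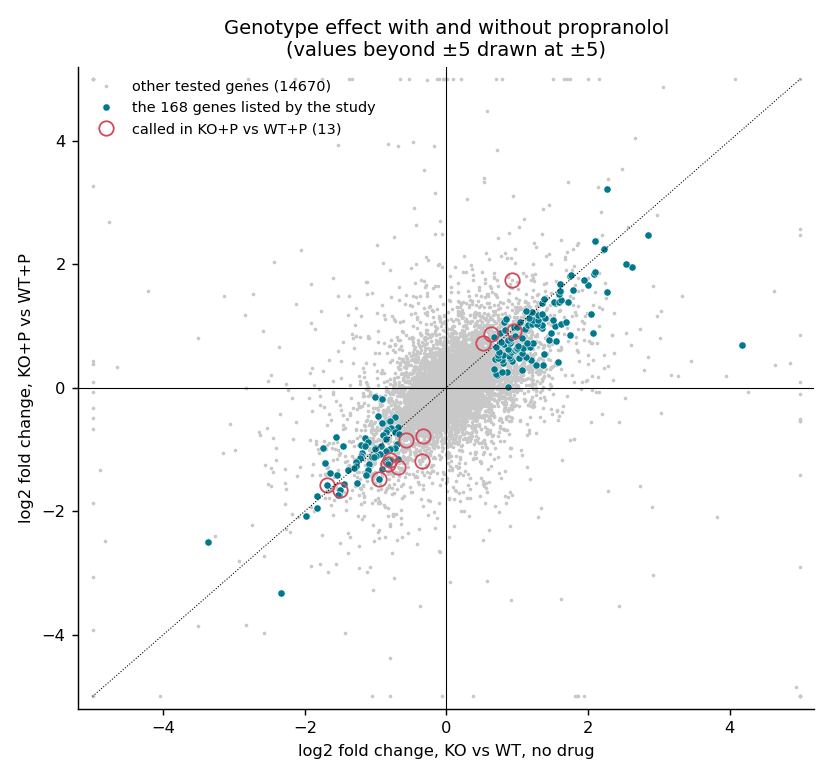
Each point is a gene, with the log2 fold change of KO vs WT without drug on the horizontal and of KO+P vs WT+P on the vertical axis. Blue points are the genes listed by the study (104 higher and 64 lower without drug), grey points all others, and red rings the 13 called genes. The dotted line marks equal effects, and every blue point has the same sign on both axes.

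Of the 13 genes called under propranolol, 6 were also called in untreated cells, 5 were in the list of the study and all 13 had the same sign in untreated cells. In untreated cells 27 genes were called by the same model (0.182%), and 26 of them kept their sign under propranolol. Without the library labelled WT replicate 1, whose Pdcd10 level went against its label, 66 genes were called, of which 21 were among the 27. The exception among the 27 was Kif14, a mitotic kinesin with no count in any library of number 1. Being called on 1 side only shows no difference, so the difference of the genotype effects was tested. No gene passed in edgeR (0 of 14838), 422 (2.84%) had an unadjusted p under 0.05, limma-voom called 0, and DESeq2 with the block called 2, Fkbp3 and Gm29331. The 8 genes with the smallest p were Kif14, Fkbp3, Fibp, Lhx6, Tmem91, Gpr161, Pparg and 1700088E04Rik, each with an adjusted p of 1.0. Lhx6, a homeobox factor, was at 41.1 and 44.2 CPM in WT+P and at 14.4, 21.9 and 17.9 CPM in KO+P, while its untreated levels lay between 15.7 and 30.3 CPM in WT and between 16.2 and 26.9 CPM in KO (unadjusted p of the difference 0.0011). Fkbp3, an immunophilin, was at 49.4 and 37.8 CPM in WT+P and at 58.0, 46.8 and 43.6 CPM in KO+P, and lower in KO without drug (log2 fold changes 0.26 and −0.36).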

How the data were processed

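Salmon quantification files of 16 poly(A) RNA-seq libraries were analysed. As deposited by the authors, each gives estimated counts and TPM per transcript. The submitters' processing notes name Salmon 1.5.2, while the methods of the study describe another aligner and counter. Estimated counts were summed per gene by GENCODE vM39 (GRCm39, 99.12% of transcripts matched), rounded, and filtered with filterByExpr, which left 14838 of 54193 genes. TPM values were used only to check marker levels. Every deposited sample column was used (0 unused).

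Genes were tested with edgeR 4.0.16 (R 4.3.3), quasi-likelihood, TMM, all 16 libraries, with group and replicate number as terms. Calls needed an adjusted p (Benjamini-Hochberg) under 0.05 and a change above 1.5-fold, and the difference of genotype effects at an adjusted p under 0.05. SE is the absolute log2 fold change divided by the root of F. limma 3.58.1 (voom) and DESeq2 1.42.0 were alternatives. Scripts were tested on simulated data.

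The labels do not say that a number marks a culture. Deviations from group means correlated at 0.683 and 0.454 between KO+P and WT+P libraries of the same number, 2 values that are not independent, since 2 libraries centred on their mean mirror each other. Over 36 same-number pairs of all groups the range was 0.0323 (WT 3 with KO+P 3) to 0.693, so not every pair passed 0.1, and the block rests on the choice to pair by number. P-values of the blocked fit measure the spread left after the replicate term, over all 16 libraries. The labels call the libraries biological replicates, and the spread left within a number may in part be technical.

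Members and gene lists were chosen with earlier results of these data known. Named were Pdcd10 and the genes in the RNA results of the study, called genes whose groups did not overlap and whose mean level reached 1 CPM (up to 12 per direction), the 8 smallest interaction p-values, of each list up to 4 called members or up to 2 of its most abundant, study genes that moved against their untreated sign, and neighbours. Genes named outside this rule are said to be. Results on some genes are not reported here.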

Additional observations from a re-analysis of the deposited data

Results flagged for a closer look

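Pparg and Tmem91 were picked out because their groups did not overlap in either condition and the genotype difference pointed in opposite directions. Both are rare. Pparg, a nuclear receptor of lipid metabolism, was at 0.74 and 0.434 CPM in WT+P and at 0.958, 0.834 and 0.981 CPM in KO+P, but at 2.02, 0.672 and 1.27 CPM in untreated WT and at 0.659, 0.417 and 0.444 CPM in untreated KO. The genotype effects differed by 1.96 on the log2 scale (edgeR unadjusted p = 0.0027, adjusted p = 1.0). Tmem91, a transmembrane protein with 76.2% of its exonic bases shared with other genes, was at 0.462 and 0.355 CPM in WT+P and between 0.723 and 0.874 CPM in KO+P, but between 0.533 and 1.06 CPM in untreated WT and between 0.311 and 0.387 CPM in untreated KO. Its effects differed by 2.30 (edgeR unadjusted p = 0.0015, adjusted p = 1.0). Neither difference passed the test across all genes.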

How the results depend on the processing

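The 13 calls between KO+P and WT+P depended on the replicate block. There were 0 without it, 0 in the 5 propranolol libraries alone without a block, 0 without the rapamycin libraries and 0 with glmTreat at 1.5-fold, but 260 with the block in replicates 1 and 2 of the propranolol groups alone, 40 without a filter on low counts, 263 by DESeq2 with the block and 59 by DESeq2 in the 5 libraries without it. DESeq2 size factors in edgeR and a filter at 1 CPM gave 13, and limma-voom 16. Leaving out 1 library gave 0 to 16. A replicate block within the propranolol libraries gave 198 and leaving out both propranolol libraries of number 1 gave 1, both added after the data were seen. For untreated KO vs WT, 27 genes were called, 1 without the block, 0 without the rapamycin libraries, 118 without a filter, 396 by DESeq2, 56 by limma-voom, 1 by glmTreat, 4 to 66 without 1 library (66 without WT replicate 1), 193 with the block within the propranolol libraries and 182 without both libraries of number 1. The difference of genotype effects gave 0 calls except 2 by DESeq2. The number of study-list genes with the untreated sign stayed at 156 or more in all settings.

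Named genes that changed sign were near zero or varied with the culture, on the log2 scale. Col1a1 was at 0.147 without the replicate block, 0.164 in the 5 libraries and 0.162 there by DESeq2. Tnfrsf10b was at 0.0069 without the block, 0.0192 in the 5 libraries, 0.0191 there by DESeq2, 0.0295 in replicates 1 and 2, 0.0133 with the block within the propranolol libraries and −0.0855 to 0.0325 without 1 library. Mylip was at −0.314 in replicates 1 and 2, −0.0186 by limma-voom, −0.330 with the block within the propranolol libraries and −0.330 to 0.282 without 1 library. Bcl2l11 was at −0.18 without both libraries of number 1 and −0.143 to 0.227 without 1 library. Without 1 library Bax ranged from −0.179 to 0.0633, Vim from −0.0695 to 0.274 and Col4a1 from −0.319 to 0.0657. The cause of these changes was not tested. With 2 WT+P libraries, leaving out either leaves a lone library that is assumed to vary like the others.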
